A study of Mus musculus with 3 samples.

Results

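The genes of the Nodal pathway were examined in 3 lists of accessible chromatin. They were Nodal, Gdf3, Tdgf1, Foxh1, Lefty1, Lefty2 and Cer1. Members were the ATAC-seq peaks that overlapped the body of any of these 7 genes or the 50 kb on either side (GENCODE M21, mm10). The SOX2-ON list had 99 such peaks among its 129843, the SOX2-OFF list 96 among 131520 and the CEpiLC list 104 among 130348, which joined into 139 of the 219473 merged regions of the series. ATAC-seq marks open DNA by letting a transposase cut and tag it. Mouse embryonic stem (ES) cells of the HM1 line (strain 129) had been taken through 72 h of differentiation to caudal epiblast-like cells (CEpiLCs), with 1 sample in each of 3 groups. The medium of every sample held the growth factor bFGF at 10 ng/ml and LGK974, an inhibitor of WNT secretion, at 5 µM, and CHIR99021, an activator of WNT signalling, was added from day 2. The CEpiLC sample was wild type. SOX2-ON and SOX2-OFF were the same clonal Sox2-/- TetON line, in which CRISPR had ablated the endogenous gene. Its only Sox2 was a transgene in the Hprt locus that doxycycline switches on through a transactivator expressed from Rosa26. Doxycycline (1 µg/ml) was maintained in SOX2-ON and withdrawn in SOX2-OFF. Peak lists do not measure SOX2 itself, so they gave no check of these labels.

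Nodal and its relative GDF3 are secreted ligands of the TGFβ family that signal through activin receptors, with the product of Tdgf1 (CRIPTO) as co-receptor. The signal activates SMAD2 and SMAD3, which act with the DNA-binding protein FOXH1. Lefty1, Lefty2 and Cer1 encode secreted inhibitors, and Nodal and the Lefty genes are themselves targets of the pathway. In the mouse embryo the pathway maintains the epiblast and patterns the primitive streak. Setting SOX2-ON beside SOX2-OFF addressed how accessibility at these genes differed with induction of the transgene, and CEpiLC gave the wild-type state of the same protocol.

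With 1 sample per group, replicate error is unknown and no test between groups was made. Peaks were therefore compared by presence, by width and by rank within their own list, in which rank 1 has the highest −log10 p. A peak was called strong if it was among the first 20000 by rank. The −log10 p of peak 20000 was 26.4 (SOX2-ON), 21.2 (SOX2-OFF) and 10.6 (CEpiLC), so absolute values were not comparable across lists. Where 3 values follow each other without names, they are in this order. Read depth is unknown, and a peak missing from a list was not detectable in that library, which does not show closed chromatin. In a bulk sample, fewer open cells and less opening per cell cannot be told apart. At the promoters of caudal epiblast genes (T, Cdx1, Cdx2, Nkx1-2, Sp5), a peak was present at 5 of 5 in all lists and was strong at 1 (SOX2-ON), 4 (SOX2-OFF) and 5 (CEpiLC). For the epiblast genes Pou5f1, Fgf5 and Otx2, it was strong at 1, 3 and 3 of 3. Over all coding genes a strong promoter peak was found at 60.0%, 62.4% and 61.7%. Of 6 fibroblast genes chosen because ES cells had been kept on feeders, a promoter peak was found at 4 in SOX2-ON and 5 in each other list, and it was strong at 3, 4 and 4. In SOX2-ON, the fibroblast genes Col1a1 (top 6.03%) and Thy1 (8.96%) ranked above all 5 caudal epiblast promoters, which stood between 14.1% and 23.1%. The epiblast gene Pou5f1 also ranked above all 5 there. Of the other fibroblast genes, Col1a2 and Twist2 stood within that range and Dcn had no peak in SOX2-ON. Postn had no peak in any list. Col1a1, Thy1 and Col1a2 ranked above all 5 in SOX2-OFF as well, and Thy1 did in CEpiLC. These are accessibilities and not transcripts, and their part in the results was not tested.

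The sequences printed here are the central 300 bases of the regions on which the results turn, from GRCm38, which is mm10. The reference strain is C57BL/6J, whereas the cells were of strain 129. Capitals mark exact matches, on either strand, to motifs of FOXH1 (AATCCACA or AATACACA), SMAD (GTCTAGAC), SOX (AACAATGG or AACAAAGG), OCT (ATGCAAAT), TCF/LEF (ATCAAAGG) and T-box factors (AGGTGTGA or AGGTGTTA), none of which overlapped another match. The first 4 regions lay upstream of Nodal, in intergenic DNA, and were weaker in SOX2-ON than in both other lists or were found only in the other lists. Of these, the region 23.3 kb upstream met the rule for named regions, as the strongest away from promoters, and the other 3 were chosen after their values were seen.

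Nodal, 23.3 kb upstream, chr10:61394566-61394865, plus strand: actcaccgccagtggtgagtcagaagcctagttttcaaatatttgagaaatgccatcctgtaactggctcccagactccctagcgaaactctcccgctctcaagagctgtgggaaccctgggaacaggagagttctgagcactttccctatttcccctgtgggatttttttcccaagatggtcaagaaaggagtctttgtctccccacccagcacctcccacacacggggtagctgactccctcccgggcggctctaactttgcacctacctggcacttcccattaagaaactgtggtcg

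Nodal, 19.7 kb upstream, chr10:61398144-61398443, plus strand: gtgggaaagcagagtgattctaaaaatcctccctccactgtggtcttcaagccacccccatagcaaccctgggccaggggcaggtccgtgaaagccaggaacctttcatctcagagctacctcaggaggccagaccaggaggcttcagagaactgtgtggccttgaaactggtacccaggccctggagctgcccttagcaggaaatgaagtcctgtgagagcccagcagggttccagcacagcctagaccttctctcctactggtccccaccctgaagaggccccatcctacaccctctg

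Nodal, 11.8 kb upstream, chr10:61406033-61406332, plus strand: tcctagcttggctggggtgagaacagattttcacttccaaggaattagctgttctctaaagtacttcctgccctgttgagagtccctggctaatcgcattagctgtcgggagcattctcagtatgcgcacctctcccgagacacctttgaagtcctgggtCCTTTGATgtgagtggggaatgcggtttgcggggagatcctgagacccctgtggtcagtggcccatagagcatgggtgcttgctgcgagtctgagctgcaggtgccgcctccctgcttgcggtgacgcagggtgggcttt

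Nodal, 9.76 kb upstream, chr10:61408059-61408358, plus strand: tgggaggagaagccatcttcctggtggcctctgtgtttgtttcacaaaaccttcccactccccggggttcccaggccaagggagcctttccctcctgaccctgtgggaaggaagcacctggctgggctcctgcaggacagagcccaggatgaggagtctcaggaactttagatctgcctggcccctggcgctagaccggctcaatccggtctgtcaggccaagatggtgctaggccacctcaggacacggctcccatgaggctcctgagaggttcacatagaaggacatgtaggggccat

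The next 3 are the strong intergenic region upstream of Lefty2, a region upstream of Lefty1 that was strong in SOX2-OFF alone, and a region upstream of Gdf3 that was strong in both lists of the engineered line and not in CEpiLC, which was likewise chosen after its values were seen.

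Lefty2, 3.81 kb upstream, chr1:180889152-180889451, plus strand: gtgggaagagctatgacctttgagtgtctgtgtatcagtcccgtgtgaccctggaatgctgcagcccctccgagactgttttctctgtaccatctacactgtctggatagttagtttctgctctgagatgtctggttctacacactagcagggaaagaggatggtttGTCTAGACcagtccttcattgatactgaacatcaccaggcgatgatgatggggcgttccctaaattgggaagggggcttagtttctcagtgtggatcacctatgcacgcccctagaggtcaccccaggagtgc

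Lefty1, 9.71 kb upstream, chr1:180925163-180925462, plus strand: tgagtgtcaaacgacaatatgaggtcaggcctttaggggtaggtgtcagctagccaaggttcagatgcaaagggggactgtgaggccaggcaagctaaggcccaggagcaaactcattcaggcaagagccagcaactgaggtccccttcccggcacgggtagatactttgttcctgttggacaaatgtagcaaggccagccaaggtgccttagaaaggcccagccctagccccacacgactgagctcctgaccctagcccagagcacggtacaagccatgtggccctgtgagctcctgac

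Gdf3, 14.7 kb upstream, chr6:122624595-122624894, plus strand: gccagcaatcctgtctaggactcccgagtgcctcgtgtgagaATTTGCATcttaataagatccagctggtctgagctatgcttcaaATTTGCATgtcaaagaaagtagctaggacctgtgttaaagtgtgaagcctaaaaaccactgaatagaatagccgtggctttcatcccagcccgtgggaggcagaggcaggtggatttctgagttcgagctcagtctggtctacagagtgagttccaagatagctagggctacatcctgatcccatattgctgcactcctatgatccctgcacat

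RefSeq promoter sequences were matched for 3 of the 7 genes, Nodal, Tdgf1 and Cer1. The 250 bases upstream of the Nodal start lay within a peak of SOX2-OFF and partly within peaks of the other lists, and none of the 3 promoters held a motif match.

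Nodal promoter, chr10:61417722-61417971, plus strand: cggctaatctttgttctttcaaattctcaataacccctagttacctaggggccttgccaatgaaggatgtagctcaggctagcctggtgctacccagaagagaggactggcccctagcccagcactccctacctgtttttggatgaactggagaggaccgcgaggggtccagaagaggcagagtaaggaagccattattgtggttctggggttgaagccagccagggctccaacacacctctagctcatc

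Among the 6 motifs, matches in the central 300 bases of member regions were few. The Lefty2 region held the only SMAD palindrome, at 1 of 139 member regions (0.719%) against 0.298% of all merged regions of the series. The Gdf3 region held 2 copies of the OCT motif and was the only member region with this motif (0.719%, against 1.86% of all regions). The TCF/LEF motif was found in 2 member regions (1.44%, against 1.5%), namely the region 11.8 kb upstream of Nodal and a region 14.0 kb downstream of the Gdf3 start. FOXH1 and SOX motifs were each found in 2 member regions (1.44%), against 2.57% and 3.86% of all regions, and T-box motifs in 5 (3.60%, against 2.37%). The SOX matches lay 12.3 kb downstream of the Nodal start and 26.7 kb upstream of Gdf3. In the 250 bases upstream of 32851 RefSeq promoters, the shares ranged from 0.167% for SMAD to 2.23% for SOX. A match describes letters in these windows and not a bound site.

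Upstream of Nodal, some regions were absent from, or ranked lower in, SOX2-ON than in both other lists, and others differed in other ways. Over all regions of the series covered by all lists, the median rank was also lowest in SOX2-ON, at the top 29.1%, 24.3% and 24.6%. The gene lies at chr10:61417972-61425338 on the plus strand. The region 23.3 kb upstream (chr10:61394253-61395178) had a rank of 24665 (SOX2-ON), 9303 (SOX2-OFF) and 11659 (CEpiLC), with a fold enrichment over the local background of 2.45, 3.09 and 2.57. It was the strongest region away from promoters in this window in every list. The region 11.8 kb upstream (chr10:61405660-61406705) followed the same order, with ranks of 27970, 11104 and 17694. Both were therefore strong in SOX2-OFF and CEpiLC and not strong in SOX2-ON. The regions 19.7 kb and 9.76 kb upstream had no peak in SOX2-ON. The first had a rank of 38818 in SOX2-OFF and 49288 in CEpiLC, and the second 41154 and 39968. By contrast, the region 18.2 kb upstream, which lies between them and was also chosen with its values known, had nearly equal ranks of 29759, 29414 and 29412. The region 15.2 kb upstream was found in SOX2-ON alone, at the low rank of 103899. The region 43.1 kb upstream had rank 35368 in SOX2-ON and 46355 in SOX2-OFF and no peak in CEpiLC. At the promoter of the neighbour Pald1, 35.0 kb upstream, SOX2-ON ranked first (8705, 9304 and 14701). Of the 25 regions in the Nodal window, 5 were covered by SOX2-OFF and CEpiLC without SOX2-ON and 2 by SOX2-ON and SOX2-OFF without CEpiLC. Over all merged regions these shares were 6.92% and 10.5%.

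**Figure D1:**
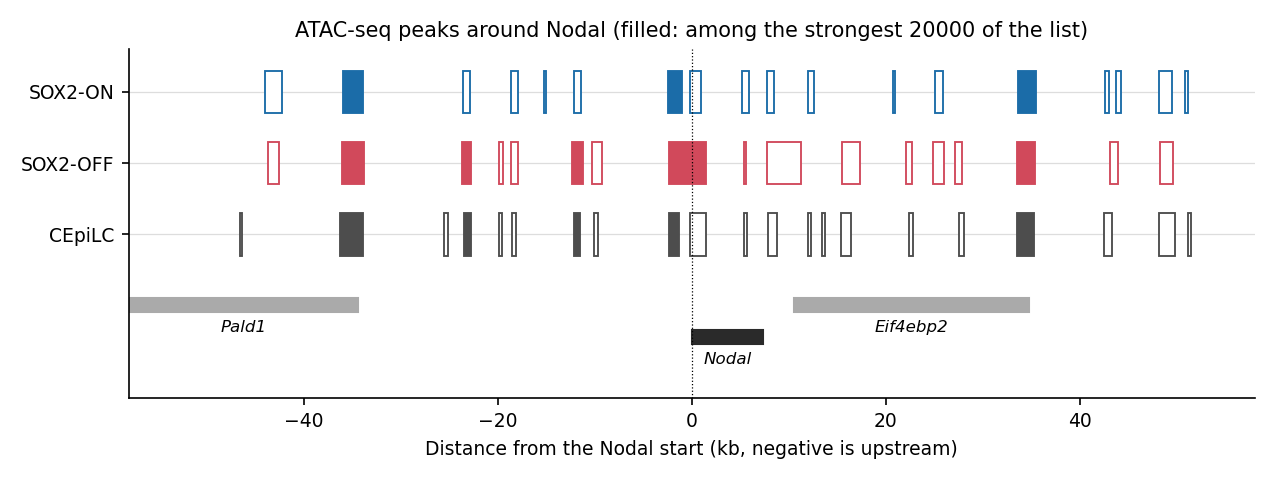
Peaks of each list by distance from the Nodal start in kb, with coding genes drawn below; filled boxes are among the strongest 20000 of their list. The boxes 23.3 kb and 11.8 kb upstream are filled in SOX2-OFF and CEpiLC and open in SOX2-ON.

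Immediately upstream of Nodal, SOX2-ON ranked above CEpiLC. A peak of 1408 bp centred 1.76 kb upstream of the start had rank 12641 in SOX2-ON, and its counterpart of 1019 bp in CEpiLC had rank 19582. A separate peak over the start had rank 22520 in SOX2-ON and 24765 in CEpiLC. Ranked within chromosome 10, that peak stood at the top 20.2% in SOX2-ON and 19.7% in CEpiLC, so its order was reversed. In SOX2-OFF both were joined in 1 peak of 3819 bp (chr10:61415610-61419428, rank 16574), so that its values cannot be assigned to either site. Within the gene, a region over an exon 5.52 kb downstream of the start stood in the top 32.5% of SOX2-ON and 27.8% of CEpiLC and at 69.3% in SOX2-OFF. Beyond the gene, a region 9492 bp downstream of the start stood highest in SOX2-OFF instead, at 72.2%, 44.1% and 80.8%. Another, 43329 bp downstream, stood lowest in SOX2-OFF, at 64.4%, 92.0% and 61.6%. The strongest peaks of the whole window were at the promoter of the neighbour Eif4ebp2, with ranks of 5433, 8716 and 8358.

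For the ligand gene Gdf3 and the co-receptor gene Tdgf1, the promoter peak ranked highest in SOX2-ON and lowest in CEpiLC. A promoter peak was the strongest peak within 1 kb of an annotated start. The Gdf3 peak (gene at chr6:122605403-122610087, minus strand) had rank 12512 (SOX2-ON), 25852 (SOX2-OFF) and 43650 (CEpiLC), which is the top 9.64%, 19.7% and 33.5%. Its width was similar in the 3 lists, at 2340, 2305 and 2433 bp. Gdf3 lies on chromosome 6, on which the engineered line had 2.77 (SOX2-ON) and 3.19 (SOX2-OFF) times the median number of peaks per Mb of the autosomes, against 0.921 in CEpiLC. Ranked within chromosome 6, the same peaks stood at the top 3.99%, 8.71% and 34.3%, in the same order. These are shares of the peaks on the chromosome, whose number was raised in the engineered line. They are therefore no check on the excess. The region 14.7 kb upstream with the OCT motifs had ranks of 17601, 17881 and 36938. It lies between Gdf3 and the neighbour Dppa3, so it cannot be assigned to Gdf3 from its position. At the promoter of Dppa3 the ranks were 21965, 37879 and 61555. The strongest region away from promoters, 23.3 kb upstream of Gdf3 and beyond Dppa3, was strong in all lists, with ranks of 15054, 12194 and 17154. Gdf3 also held 7 of the 11 member regions found in both lists of the engineered line but not in CEpiLC and 8 of the 12 found in SOX2-OFF alone. The part played by the chromosome 6 excess in these counts was not tested.

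At Tdgf1 (chr9:110939603-110946158, minus strand), the promoter peak had a rank of 10080 (SOX2-ON), 12302 (SOX2-OFF) and 20993 (CEpiLC), with a fold enrichment of 3.68, 2.69 and 2.17. A further peak of 192 bp, 1.73 kb downstream of the start, was found in CEpiLC alone at rank 58007. The strongest region of the window in every list was a narrow intergenic one 48.8 kb upstream, near Rtp3, with ranks of 7876, 5269 and 3726, so it was strong in every list. In the opposite direction, a region 49.8 kb downstream within Als2cl had ranks of 66359, 22849 and 42539.

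Foxh1, the gene of the transcription factor, had the strongest promoter among the members by −log10 p and the largest overlap of covered bases between lists. Ranked by fold enrichment instead, the Foxh1 promoter stood at the top 15.8%, 18.8% and 24.2%, and that of Tdgf1 was the strongest in every list, at 8.53%, 10.9% and 16.1%. The Foxh1 window (gene at chr15:76668225-76669948, minus strand) held 10 other coding genes, and 15 of its 21 regions were covered by all lists, against 27.0% of all merged regions and 67.2% of those within 1 kb of a coding start. The Foxh1 promoter peak had a rank of 8895 (SOX2-ON), 11334 (SOX2-OFF) and 17272 (CEpiLC). In CEpiLC the region was split into 3 peaks, the strongest of which (rank 9686) was centred 1.78 kb upstream of the Foxh1 start, towards the neighbour Ppp1r16a. The merged region also lay within 1 kb of a Ppp1r16a start, so it is a promoter region of both genes. Taking the region as a whole, the ranks of 8895, 11334 and 9686 were close. The strongest peak of the Foxh1 window lay at the promoter of Tonsl, with ranks of 1262, 698 and 1598. Regions downstream of Foxh1 at 23.4 kb and 2.79 kb stood lower in SOX2-OFF, at 71.3% and 78.4%, than in SOX2-ON (38.6% and 48.2%) and CEpiLC (43.4% and 48.5%).

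The Lefty genes, which encode feedback inhibitors, lie side by side on chromosome 1, and 15 of the 34 regions in their windows belonged to both. The intergenic region 3.81 kb upstream of Lefty2 (chr1:180888175-180890428), which held the SMAD palindrome, had ranks of 7130 (SOX2-ON), 10289 (SOX2-OFF) and 19909 (CEpiLC). Its fold enrichment was 4.14, 2.59 and 2.07, and it was strong in every list. The Lefty2 promoter peak followed the same order at lower ranks (24243, 27381 and 34128). In no list did a peak cover the start base of the longest coding transcript of Lefty2, although the promoter region held another annotated start. The region 9.71 kb upstream of Lefty1 (chr1:180924528-180926098) had ranks of 42805, 18179 and 96310 and widths of 774, 1571 and 253 bp. It was thus strongest and widest in SOX2-OFF and weakest and narrowest in CEpiLC. The promoter peak of Lefty1 was strongest in SOX2-OFF, with ranks of 34026, 24292 and 27702. In CEpiLC it was 1 peak of 4673 bp, whereas SOX2-ON and SOX2-OFF each had 2 separate peaks there, covering 2691 and 2862 bp. The ranks given for these lists are those of the peak centred 1.80 kb (SOX2-ON) and 1.82 kb (SOX2-OFF) downstream of the start. Over the start base the ranks were 38955, 26931 and 27702, so SOX2-OFF and CEpiLC were close. The region 18.5 kb upstream of Lefty2 was strong in every list, with ranks of 15152, 16714 and 18297.

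Cer1 (chr4:82881751-82885148, minus strand) had the fewest peaks, with 6 (SOX2-ON), 4 (SOX2-OFF) and 5 (CEpiLC). Its promoter peak stood at the top 24.9% in SOX2-ON (rank 32319), 52.1% in SOX2-OFF (68526) and 52.8% in CEpiLC (68846). These peaks did not cover the same bases. The SOX2-ON peak (chr4:82885707-82886418) ended upstream of the start, the CEpiLC peak (chr4:82884481-82885210) lay over it, and the SOX2-OFF peak (chr4:82884887-82886521) overlapped both. The only strong member peak missing from another list was also in this window, 35.4 kb downstream at an internal start of Zdhhc21. It was 2230 bp wide with rank 16267 in SOX2-OFF, was 536 bp wide with rank 26790 in CEpiLC and was not called in SOX2-ON.

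**Figure D2:**
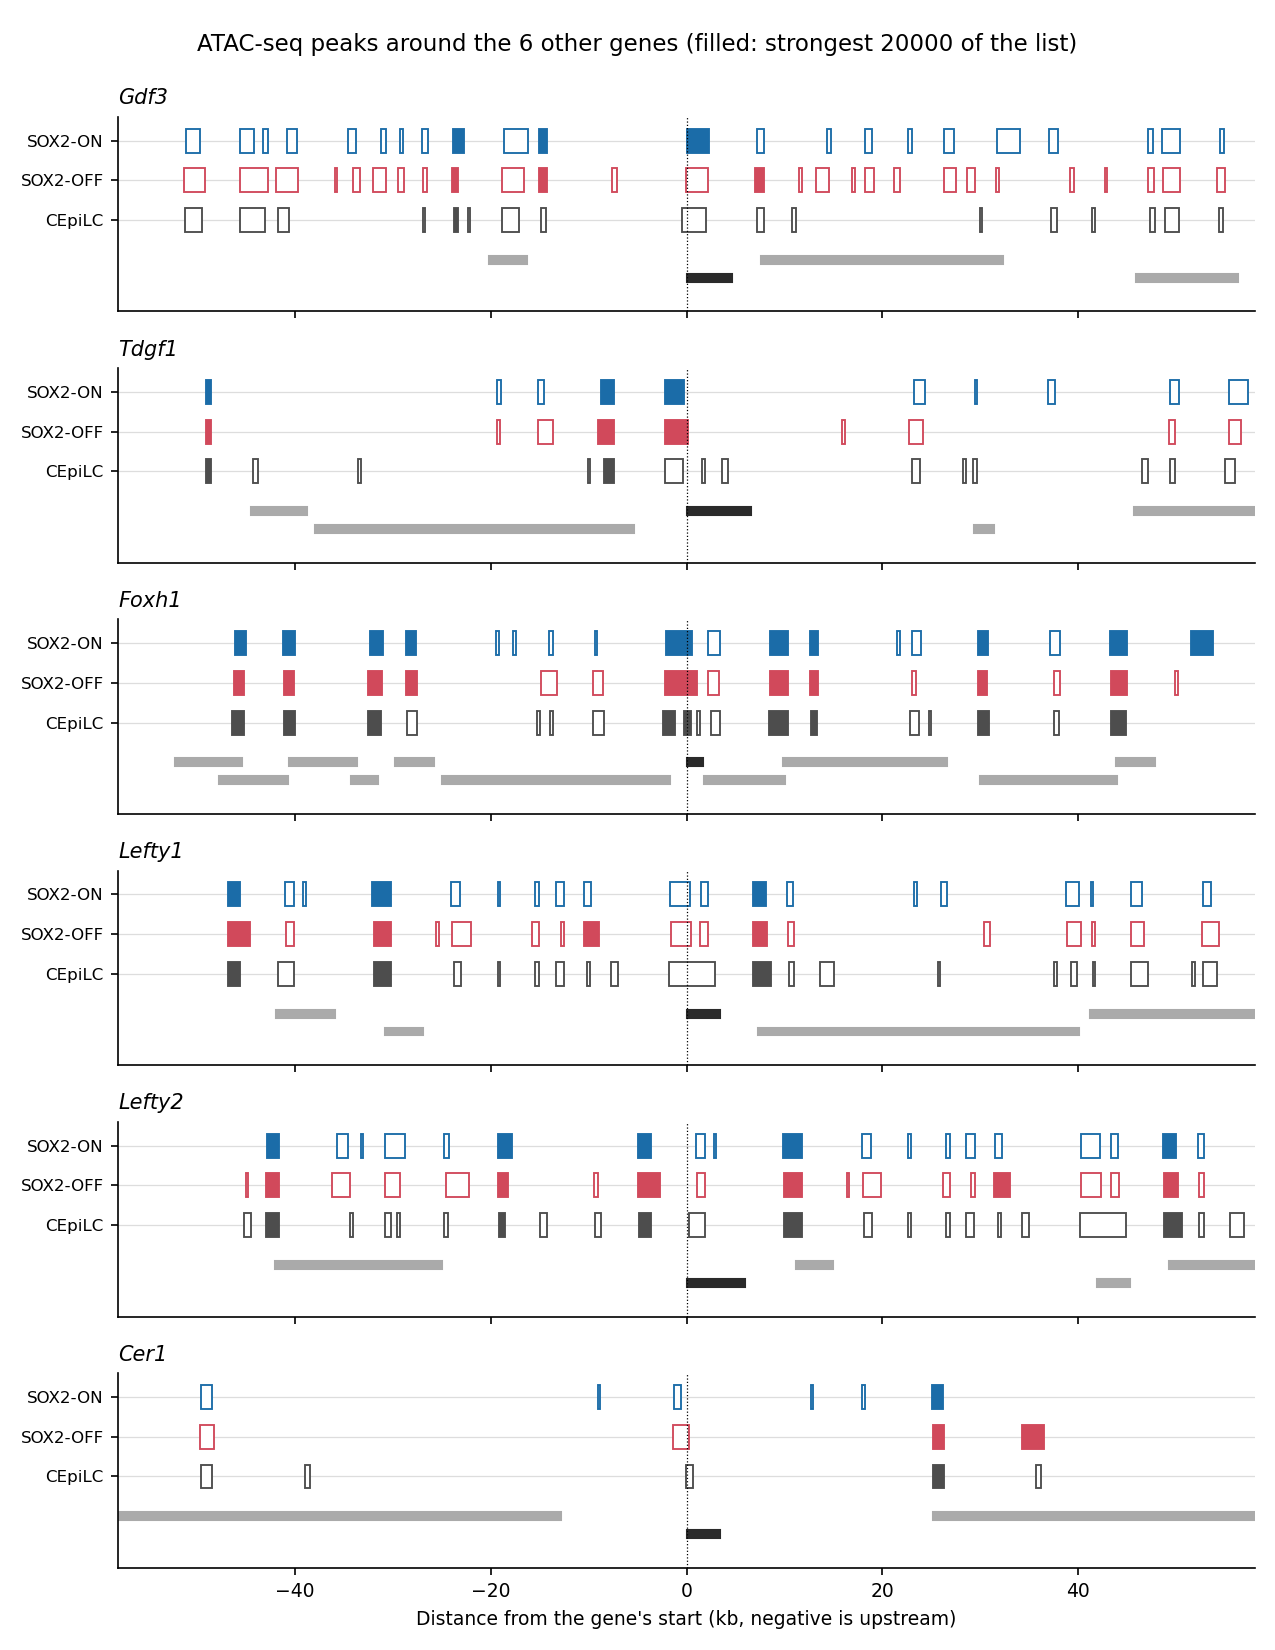
Peaks of each list by distance from the start of Gdf3, Tdgf1, Foxh1, Lefty1, Lefty2 and Cer1 in kb; filled boxes are among the strongest 20000 of their list, black bars the named gene and grey bars other coding genes. Foxh1 has 10 strong peaks in SOX2-ON and 9 in each other list, and Cer1 has 1, 2 and 1.

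Across the 7 promoters, SOX2-ON ranked best at 5 (Gdf3, Tdgf1, Foxh1, Lefty2 and Cer1), SOX2-OFF at 2 (Nodal and Lefty1) and CEpiLC at 0. Among all coding genes with a promoter peak in every list, the shares were 33.7%, 29.4% and 36.8%. Every member had a promoter peak in every list, as did 74.9%, 75.8% and 76.3% of coding genes. Few of them were strong, with 3 of 7 in SOX2-ON (Gdf3, Tdgf1 and Foxh1), 3 in SOX2-OFF (Nodal, Tdgf1 and Foxh1) and 1 in CEpiLC (Foxh1), against 60.0%, 62.4% and 61.7% of all coding genes. With 7 genes these counts are descriptions only. The Nodal call rests on the joined SOX2-OFF peak, which cannot be assigned to the start. Over the whole Nodal promoter region SOX2-ON ranked first (12641, 16574 and 19582), with its strongest peak just beyond 1 kb from the start. At Foxh1, the SOX2-ON and SOX2-OFF peaks joined the start with the site 1.78 kb upstream, which was a separate peak in CEpiLC. Their ranks cannot be assigned to the Foxh1 start either. At Lefty1, the CEpiLC peak joined sites that were separate peaks in the other lists. If a peak had to cover the start base of the longest coding transcript, 3 of 7 genes had such a peak in every list and SOX2-ON ranked best at 1 of them. The SOX2-ON peaks of Gdf3, Tdgf1 and Cer1 did not reach the start, and no list had such a peak at Lefty2. The SOX2-ON peak of Gdf3 ended only 4 bp from the start of the gene, and peak edges are approximate.

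**Figure D3:**
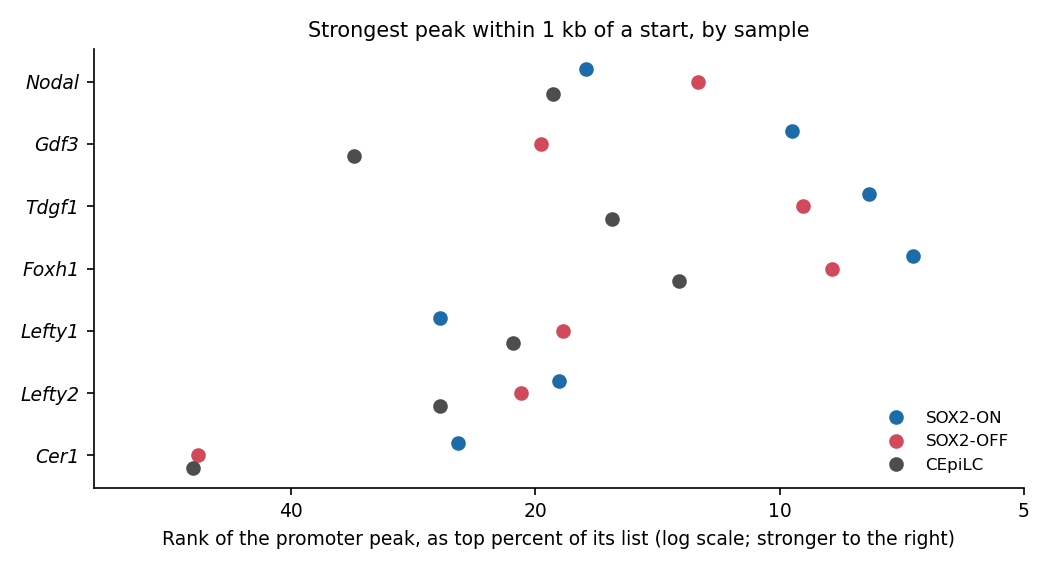
Rank of the strongest peak within 1 kb of a start of each gene, as top percent of its list on a log axis with stronger peaks to the right; colours are the 3 samples. SOX2-ON is rightmost for 5 genes and SOX2-OFF for Lefty1 and for Nodal, where the SOX2-OFF point is the joined peak of 3819 bp.

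The other genes of the pathway had promoters of higher rank than the members, with a median at the top 7.31%, 6.98% and 7.80% of the lists beside 17.3%, 18.5% and 21.3% for the 7 members. Over all coding genes with a promoter peak the median was 6.25%, 6.19% and 6.57%, so the median of the list stood near the background. All 29 genes of a list of ligands, receptors, transducers and targets had a promoter peak in every list, and it was strong at 27 (SOX2-ON), 27 (SOX2-OFF) and 26 (CEpiLC). Over all coding genes, a promoter peak was found at 74.9%, 75.8% and 76.3% and a strong one at 60.0%, 62.4% and 61.7%. The best rank was in SOX2-ON for 17 genes, in SOX2-OFF for 7 and in CEpiLC for 5. For all coding genes with a promoter peak in every list, it was in these lists for 33.7%, 29.4% and 36.8%. Among the 13 transducers and brakes, SOX2-ON ranked best at 10, and the median promoter stood at the top 1.72%, 2.72% and 4.48% of the lists. Smad2, the gene of a transducer of the signal, had ranks of 193, 315 and 655. The 4 receptor promoters were strong in all lists. Of the 6 targets, the mesendoderm gene Eomes had ranks of 10879, 12330 and 14905, Mixl1 15865, 11615 and 12598, and Foxa2 14220, 8766 and 8503. The promoter of Gsc was the only target that was not strong, with ranks of 21649, 25939 and 22382. Dand5, which encodes an inhibitor related to the product of Cer1, had ranks of 38322, 24492 and 20343.

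Regions of the member windows were more often covered by all lists than the merged regions of the series as a whole. All lists covered 65 of 139 member regions (46.8%, Wilson 95% interval 38.7 to 55.0), against 27.0%. This and the other Wilson intervals cover counting error only. Regions within 1 kb of a coding start, 40 of the 139, accounted for 29 of the 65, and in the whole series 67.2% of such regions and 21.3% of the rest were in all lists. SOX2-ON and SOX2-OFF alone covered 11 (7.91%, against 10.5%), SOX2-OFF and CEpiLC alone 8 (5.76%, against 6.92%) and SOX2-ON and CEpiLC alone 4 (2.88%, against 3.28%). Regions of a single list numbered 15 in SOX2-ON (10.8%, against 16.9%), 12 in SOX2-OFF (8.63%, against 15.1%) and 24 in CEpiLC (17.3%, against 20.3%). The regions of a single list were weak, with a median at the top 85.2%, 80.0% and 77.1% of their own lists. Without Gdf3, the share of regions in SOX2-ON and SOX2-OFF alone was 3.77% and that in SOX2-OFF alone 3.77%.

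**Figure D4:**
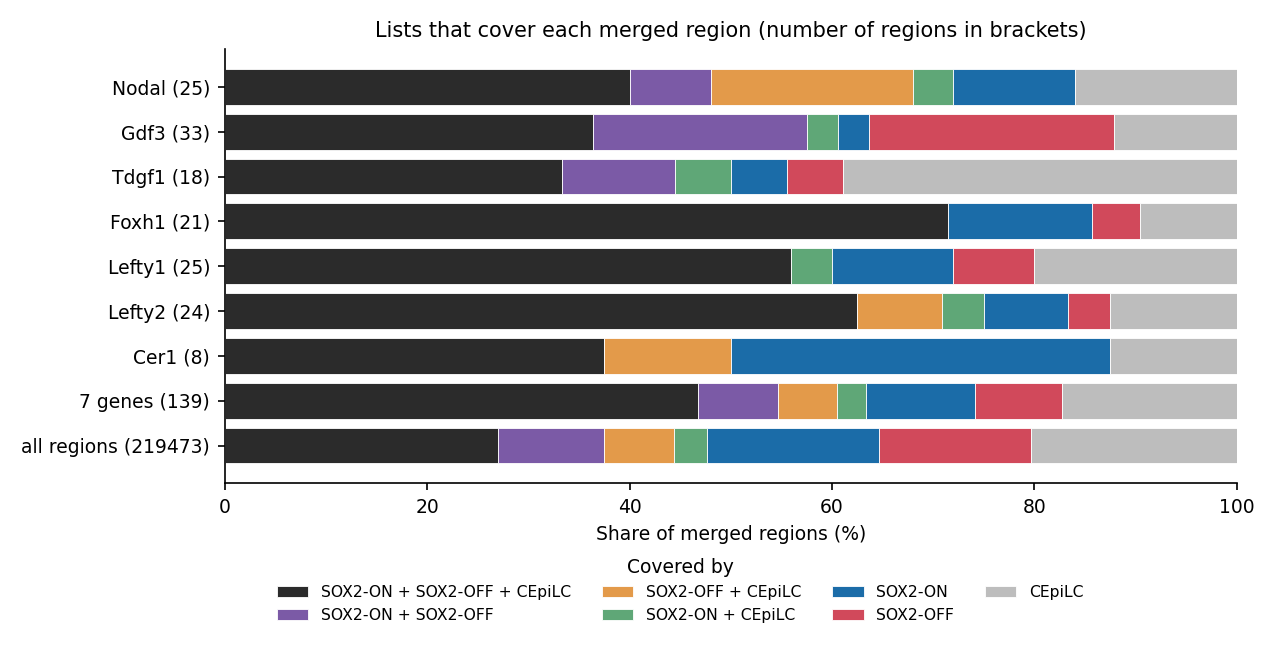
Share of merged regions by the lists that cover them, for each gene window, for the 7 genes together and for all regions of the series, with the number of regions in brackets; 15 regions are in both Lefty windows. The share in all lists is 46.8% for the 7 genes and 27.0% for all regions.

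Strong peaks were seldom missing. None of the 25 strong member peaks of SOX2-ON was missing from SOX2-OFF (5.04% of all strong peaks) or from CEpiLC (8.58%), where missing means that under 10% of the length was covered. Of the 28 in SOX2-OFF, 1 (3.57%, 0.633 to 17.7) was missing from SOX2-ON, against 1.30%, and 0 from CEpiLC, against 1.06%. Of the 23 in CEpiLC, 0 were missing from SOX2-ON, against 1.42%, and 0 from SOX2-OFF, against 0.620%. With so few peaks, the upper limits of the Wilson interval for the counts of 0 were 12.1% to 14.3%, above every background share.

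In the 65 regions of all lists, few ranks differed by over 20 percentile points. SOX2-ON was stronger than SOX2-OFF in 6 (9.23%, against 6.31% of all shared regions) and weaker in 5 (7.69%, against 13.6%). It was stronger than CEpiLC in 8 (12.3%, against 10.1%), of which 4 were near Gdf3, and weaker in 3 (4.62%, against 15.1%), all in the Lefty windows. SOX2-OFF was stronger than CEpiLC in 4 (6.15%, against 10.7%) and weaker in 6 (9.23%, against 7.42%). The share by which CEpiLC was stronger than SOX2-ON was the only one of these whose interval (1.58 to 12.7) did not include the background. The regions 23.3 kb and 11.8 kb upstream of Nodal did not reach 20 points. Large shifts were seen at the region 9.71 kb upstream of Lefty1, at 33.0%, 13.8% and 73.9%, and at that 23.5 kb upstream of Lefty2, at 68.7%, 88.9% and 30.3%.

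**Figure D5:**
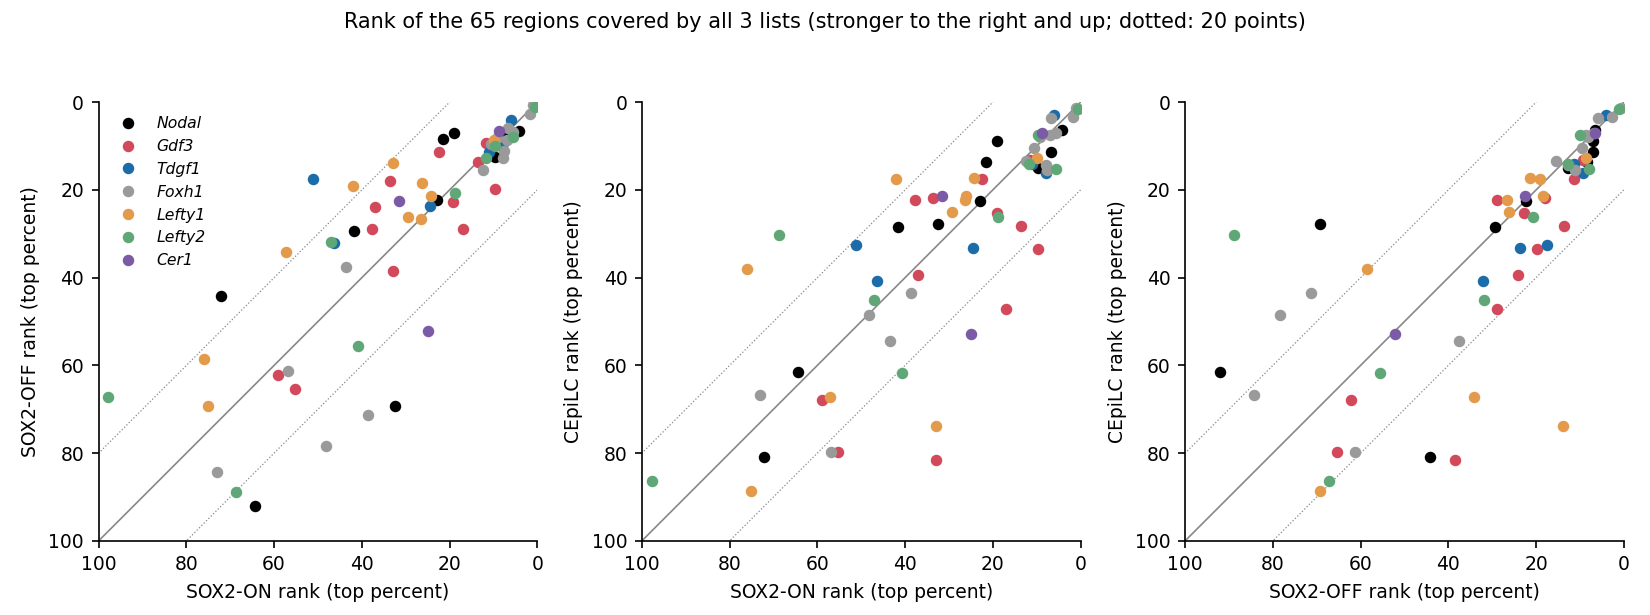
Rank of each of the 65 shared regions in pairs of lists, as top percent with stronger regions to the right and up, coloured by gene; dotted lines mark 20 points. Most regions lie between the dotted lines, and those outside are mostly weak in at least 1 list.

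Widths were compared in the same 65 regions. SOX2-OFF was over 1.5 times wider than SOX2-ON in 15 of 65 regions (23.1%, against 24.6%) and narrower by as much in 7 (10.8%, against 9.55%). It was wider than CEpiLC in 21 (32.3%, against 30.0%) and narrower in 5 (7.69%, against 8.03%). SOX2-ON was wider than CEpiLC in 14 (21.5%, against 23.0%) and narrower in 4 (6.15%, 2.42 to 14.8, against 15.9%), where the interval lay below the background. The median widths of the 65 regions were 1073, 1343 and 991 bp, beside 1006, 1159 and 902 bp over all shared regions.

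By bases, peaks covered 13.6%, 16.6% and 12.6% of the member windows, against 3.75%, 4.54% and 3.44% of the genome. The Jaccard index, the covered bases shared by both lists over those covered by either, was 0.557 for SOX2-ON with SOX2-OFF, 0.485 for SOX2-ON with CEpiLC and 0.485 for SOX2-OFF with CEpiLC, against 0.420, 0.348 and 0.376 over the genome. It was highest at Foxh1 (0.717, 0.651 and 0.687) and low at Cer1 (0.386, 0.375 and 0.411). Only at Nodal and Cer1 was SOX2-OFF closer to CEpiLC than to SOX2-ON, with an index of 0.510 against 0.479 at Nodal and 0.411 against 0.386 at Cer1.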

How the data were processed

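ATAC-seq peak lists of 3 samples, 1 per group, were used, with groups taken from the labelled treatment and genotype. Within nf-core/atacseq, the authors used Trim Galore for adapter removal and BWA for alignment (mm10), discarded reads of the mitochondrial genome, and used MACS in its broad mode (MACS2 per the labels). Peaks were called per sample. For each peak the authors deposited a fold enrichment (ratio of pileup to local background), −log10 p, −log10 q and a score, which was not used. The caller's settings for cut-site shifting, and read totals, are not given in the sources used here, and broad calling joins neighbouring sites, so edges and widths are approximate.

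Lists were merged into regions wherever peaks overlapped or touched. A region's rank in a list was that of its strongest peak by −log10 p, and its width the sum over its peaks. Starts and genes were taken from GENCODE M21 and sequences from GRCm38 (RefSeq). Shares have Wilson 95% intervals (statsmodels 0.14.6). The functions were tested on simulated lists. Regions met the rules for naming if they lay at a member start, held a strong peak missing elsewhere or shifted by over 20 percentile points. Those strongest away from promoters met them too. Not all regions that met these rules are described here. Other regions were named outside these rules, with their values known. They lay 43.1, 19.7, 18.2, 15.2, 11.8 and 9.76 kb upstream of Nodal and 14.7 kb upstream of Gdf3. The Pald1 promoter and the strongest promoters of the windows were also named in this way. The members, lists and rules were chosen with earlier results of these data known. Alternatives were thresholds on −log10 q, lists of equal length, other windows, leaving out Gdf3 or Foxh1, and other rank, width and promoter rules.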

Additional observations from a re-analysis of the deposited data

How the results depend on the processing

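No paired analysis was possible because only 1 sample stood in every group, and no replicate could be left out. Of 232 recomputed values of the comparisons, 191 stayed within the Wilson interval of the share, or within 1.5 times the count or index, including all 21 Jaccard indices. Peak counts in SOX2-ON, SOX2-OFF and CEpiLC were 49, 53 and 36 at a −log10 q of at least 5, 50, 56 and 51 with the 50000 strongest peaks of each list, 26, 27 and 32 with windows of 10 kb and 168, 171 and 170 with 100 kb; at a −log10 q of at least 2, the CEpiLC count was 63. At a −log10 q of at least 5, all lists covered 55.2% of regions (41.0% of all), SOX2-ON with SOX2-OFF alone 17.2% (15.1% of all), SOX2-ON with CEpiLC alone 0% (0.763% of all) and CEpiLC alone 0% (2.02% of all). With lists of equal length all covered 60.9% (41.9% of all), SOX2-ON alone 6.25% (16.7% of all) and CEpiLC alone 4.69% (13.4% of all). CEpiLC alone covered 6.59% (11.9% of all) at a −log10 q of at least 2. SOX2-ON with SOX2-OFF alone covered 2.78% in windows of 10 kb and 3.77% without Gdf3, and SOX2-OFF alone 3.77% without Gdf3. The strong SOX2-OFF peak missing from SOX2-ON was not among the strongest 10000 or within 10 kb, giving 0%. No region shifted by over 20 points at a −log10 q of at least 5 (0% in each direction), where the peaks left were all high in their lists. Ranked within chromosomes, SOX2-OFF was stronger than CEpiLC in 15.4%. At a −log10 q of at least 5, the share wider in SOX2-ON than SOX2-OFF was 3.12%, in SOX2-ON than CEpiLC 9.38%, in SOX2-OFF than CEpiLC 21.9% and in CEpiLC than SOX2-OFF 3.12%. With windows of 10 kb, SOX2-ON was wider than SOX2-OFF in 5.26% and than CEpiLC in 10.5%, and CEpiLC than SOX2-ON in 15.8%. With a peak required over the start base, SOX2-ON ranked best at 1 gene. Of 56 further values for single promoters, 8 moved by over 1.5 times. By fold enrichment, Nodal stood lower, at the top 27.5%, 26.3% and 29.1%, as did Foxh1, at 15.8%, 18.8% and 24.2% (6.85%, 8.62% and 13.3% by −log10 p). Ranked within its chromosome, Gdf3 went from 9.64% to 3.99% in SOX2-ON and from 19.7% to 8.71% in SOX2-OFF. Apart from the settings whose construction is named, the cause of these moves was not tested.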
